A study of Mus musculus with 8 samples.

Results

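Hippocampal levels of 10 imprinted genes that are expressed in brain were compared between BTBR and B6 mice: Meg3, Rian, Peg3, Ndn, Snrpn, Magel2, Ube3a, Cdkn1c, Plagl1 and Grb10. Their members on the array were taken as every non-control probe whose gene name in the scanner files is one of these symbols, which gave 23 probes for 10 genes, among 41174 non-control probes with 27373 gene names. The B6 mice were wild type C57BL/6J and the BTBR mice carried the genotype BTBR T+ Itpr3tf/J, an inbred strain used as a model of autism spectrum disorder. The labels also give C57BL/6J as the strain background of the BTBR samples. All mice were untreated males of 5 months, with 4 mice per strain, 1 mouse per array, and RNA of the whole hippocampus on single-color Agilent arrays. The arrays of replicates 1 and 2 of either strain shared one slide, slide 1, and those of replicates 3 and 4 another, slide 2.

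An imprinted gene is expressed mainly from the copy inherited from one parent, and DNA methylation at a control region, which often governs several neighboring genes, differs between the parental copies. The methylated copy of that region can belong to the silent or to the active copy of a gene. Many imprinted genes regulate growth, and several in brain are linked to human syndromes, such as the Prader-Willi and Angelman syndromes for the cluster that holds Ndn, Magel2, Snrpn and Ube3a. The probes bind RNA of both parental copies, so the levels below are totals and say nothing of which copy was expressed. In whole tissue, fewer cells of a type and less RNA per cell cannot be told apart.

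None of the 10 genes differed between the strains at an adjusted p under 0.05. The level of a probe is its log2 intensity after background subtraction and quantile normalization, and a difference is BTBR minus B6 on that log2 scale, tested with limma and adjusted by Benjamini-Hochberg over all 27981 probes that passed the filter on dim signals. All 23 member probes passed that filter, 0 of 23 were called in either direction, and over all tested probes 7.61% were called, 3.31% higher and 4.3% lower in BTBR. At an unadjusted p under 0.05 there was 1 member probe, of Peg3, against 18.5% of all probes. The rank product, the test named in the methods, which estimates no spread between mice for a probe, called 0 of the 23 at a percentage of false prediction (pfp) of 0.05 or less, against 3.94% of all probes. At each of the 23 probes the levels of the strains overlapped, whereas at 14.2% of all probes they did not. The differences ran from -0.22 to 0.58 with a median of 0.071, and 16 of the 23 were positive. Over all tested probes the median was 0.011 and 53.3% of the differences were positive. The member median depended on the arrays and the scaling, with 0.019 without BTBR replicate 1, 0.13 without BTBR replicate 3, and 0.030 with 13 positive differences under median centring.

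**Figure D1:**
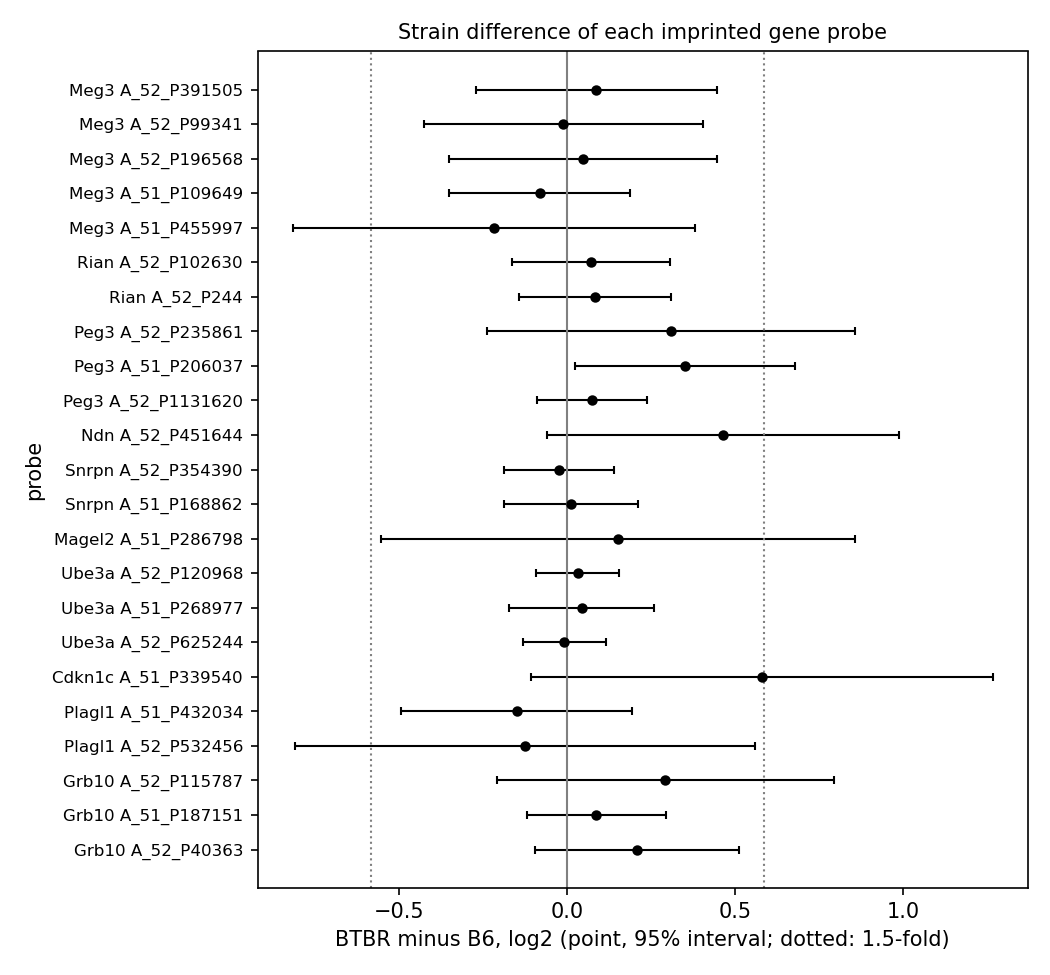
Strain difference of each of the 23 probes (BTBR minus B6, log2), with points for the estimate and bars for the 95% interval from limma (n = 4 per strain); dotted lines mark 1.5-fold. The estimates lie between -0.22 for Meg3 A_51_P455997 and 0.58 for Cdkn1c, and the interval of 1 probe, Peg3 A_51_P206037, leaves out 0.

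The 95% interval of the difference lay within 1.5-fold in both directions for 15 of the 23 probes, and for 81.9% of all tested probes. The intervals were narrow for Ube3a, Snrpn and Rian. They were wide for Cdkn1c, Ndn, Magel2, 2 probes of Peg3, and 1 probe each of Grb10, Plagl1 and Meg3, so that for these a difference of more than 1.5-fold was not excluded by the interval. Both Rian probes and Ube3a A_51_P268977 were dim, with B6 means of 8.65, 8.41 and 8.56. The offset of 50 added before the log2 step shrinks differences of dim probes, so their narrow intervals apply to the scaled levels. With the processed signal their differences were 0.13, 0.14 and 0.11, against 0.071, 0.083 and 0.042. This limit also holds for the dim probes of Peg3 and Grb10.

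Sequences of 9 probes of 4 genes are given. The positions are those of mm9, the build named in the array files, and every probe is written 5′ to 3′. Meg3 is shown because its 5 probes read different stretches of a noncoding RNA, and Snrpn because its 2 probes overlap. Ndn and Peg3 are shown because they had the smallest p-values of the set. Capitals mark the bases at which the 2 Snrpn probes differ within the stretch they share.
Meg3 A_52_P391505: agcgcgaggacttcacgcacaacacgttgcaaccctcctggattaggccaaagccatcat
Meg3 A_52_P99341: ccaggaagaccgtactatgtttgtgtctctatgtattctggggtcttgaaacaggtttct
Meg3 A_52_P196568: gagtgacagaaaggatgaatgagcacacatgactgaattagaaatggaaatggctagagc
Meg3 A_51_P109649: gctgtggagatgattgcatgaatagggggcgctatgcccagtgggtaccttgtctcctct
Meg3 A_51_P455997: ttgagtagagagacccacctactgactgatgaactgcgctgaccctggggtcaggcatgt
Peg3 A_51_P206037: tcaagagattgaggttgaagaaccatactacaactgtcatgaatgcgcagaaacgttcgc
Ndn A_52_P451644: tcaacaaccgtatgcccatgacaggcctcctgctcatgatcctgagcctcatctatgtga
Snrpn A_52_P354390: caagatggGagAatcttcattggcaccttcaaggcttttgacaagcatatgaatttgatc
Snrpn A_51_P168862: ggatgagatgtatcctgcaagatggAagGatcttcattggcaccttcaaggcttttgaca

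Meg3 and Rian are long noncoding RNAs expressed from the maternal copy of the Dlk1-Dio3 cluster on chromosome 12, and Rian is a host of small nucleolar RNAs. The Meg3 probes lie on the plus strand in the order A_52_P391505 (chr12:110787974-110796459), A_52_P99341 (chr12:110797172-110797231), A_52_P196568 (chr12:110799558-110799617), A_51_P109649 (chr12:110800898-110800957) and A_51_P455997 (chr12:110809678-110809737). The first of them spans 8486 bases of the genome with 60 bases of sequence, so it crosses an intron. The array files name the first and the last after transcript variant 5 and the 3 between them after variant 6. They list further transcripts for each of the 5 probes, so no probe is specific to a single variant.

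The strains did not differ by the test at any Meg3 probe, with differences between -0.22 and 0.087. At the last probe, A_51_P455997, the B6 levels were 16.86, 16.81, 16.52 and 16.79 in replicates 1 to 4, and the BTBR levels were 16.88, 16.83, 15.61 and 16.79. BTBR replicate 3 stood below the other 7 mice, which lay close together. The difference was -0.22 (SE 0.26, adjusted p = 0.74, limma), and without BTBR replicate 3 it was 0.086 (adjusted p = 0.63). That same mouse had the lowest of the 8 levels at all 5 Meg3 probes. At the probe across the intron it had 14.89 where the other 7 mice had 15.16 to 15.66, and the difference between strains was 0.087 (adjusted p = 0.84). Probe A_52_P99341 gave 14.49 in that mouse and between 14.75 and 15.34 in the others. Without it, the differences of the 5 probes were 0.25, 0.15, 0.22, 0.019 and 0.086 in the order of their position, so that the sign turned for 3 of them, and the smallest of their adjusted p was 0.14.

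Rian did not differ either. At A_52_P102630 (chr12:110890293-110890352) the B6 levels were 8.49, 8.73, 8.78 and 8.57 and the BTBR levels 8.65, 8.96, 8.55 and 8.71. The strains overlapped, with a difference of 0.071 (SE 0.10, adjusted p = 0.79, limma). The other probe, A_52_P244 (chr12:110899742-110899801), gave a difference of 0.083 (adjusted p = 0.73). The intervals of both probes together reached from 0.893-fold to 1.24-fold. BTBR replicate 3 was not the lowest mouse at either Rian probe.

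The other RNAs of the cluster were read from a list of imprinted genes outside the 10. Mirg, a maternally expressed noncoding RNA downstream of Rian and the host of a large microRNA cluster, had its lowest level, 11.09, in BTBR replicate 3 and levels of 11.58 to 12.03 in the other 7 mice. Its difference was 0.052 (adjusted p = 0.92, limma). The 3 tested genes of the cluster, among them Dlk1 and Dio3, which are expressed from the paternal copy, gave 0 calls in limma. The rank product called Dio3 lower in BTBR (pfp = 0.022), where the difference was -0.86 (adjusted p = 0.34, limma) and the strains overlapped.

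Ndn, Magel2, Snrpn and Ube3a belong to the Prader-Willi and Angelman cluster on chromosome 7. Ndn encodes necdin, a protein of the MAGE family that restrains cell division and promotes the differentiation and survival of neurons, and it is expressed from the paternal copy. Its single probe, A_52_P451644 (chr7:69493847-69493906, plus strand), gave levels of 13.30, 13.47, 13.54 and 14.47 in B6 replicates 1 to 4. The BTBR levels were 14.25, 14.15, 13.96 and 14.28. All 4 BTBR mice stood above 3 of the B6 mice, and B6 replicate 4 had the highest level of the 8. The difference was 0.46, or 1.38-fold (95% interval 0.959 to 1.98-fold), with an adjusted p of 0.34 in limma and an exact two-sided permutation p of 0.14. The smallest p that 4 against 4 arrays allow is 0.0286. Within slide 1 the difference was 0.82 (adjusted p = 0.12, limma) and within slide 2 it was 0.11 (adjusted p = 0.95).

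The result for Ndn turned on 1 mouse. Without B6 replicate 4 the difference was 0.72 and passed the threshold (adjusted p = 0.0051, limma, with 5.62% of all probes called in that fit). Leaving out each of the other mice in turn gave no call. The same B6 mouse had the highest B6 level of a list of 9 hypothalamic and pituitary genes (Avp, Oxt, Pmch, Hcrt, Agrp, Pomc, Gh, Prl and Cga), given as the mean log2 level over the list. That level was 8.72, 8.74, 9.82 and 10.74 in B6 replicates 1 to 4 and 9.72, 9.92, 10.34 and 10.34 in BTBR. All 9 genes of the list were well above background on at least 1 array and 0 of them were called. The pituitary genes Prl, Gh and Cga were well above background in 2 of 4 B6 and in 4 of 4 BTBR mice and had differences of 2.26, 0.92 and 0.73, and that of Pomc was 0.63. Among the hypothalamic genes the differences were 0.71 for Oxt, 0.24 for Avp, 0.051 for Agrp, -0.076 for Pmch and -0.28 for Hcrt. The part of these genes in the Ndn levels was not tested.

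Magel2, a paternally expressed member of the same protein family, which takes part in endosomal protein recycling, varied widely between mice of a strain. At A_51_P286798 (chr7:69526159-69526218, plus strand) the B6 levels were 8.39, 9.40, 9.04 and 9.20, and the BTBR levels were 9.60, 9.74, 8.51 and 8.78. BTBR replicates 1 and 2 were the highest mice and BTBR replicates 3 and 4 were below 3 of the B6 mice. The difference over all mice was 0.15 (SE 0.31, adjusted p = 0.86, limma). Within slide 1 it was 0.77 (adjusted p = 0.16) and within slide 2 it was -0.47 (adjusted p = 0.63).

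Snrpn encodes SmN, a core protein of the spliceosome in neurons, and it is expressed from the paternal copy. Its probes lie on the minus strand at chr7:67132330-67132389 (A_52_P354390) and chr7:67132347-67132406 (A_51_P168862) and share 43 bases of the genome. Within the shared stretch their printed sequences differ at 2 bases, G9A and A12G, with positions counted from 1 at the 5′ end of A_52_P354390, whose base is given first. At A_52_P354390 the B6 levels were 15.61, 15.74, 15.74 and 15.83 and the BTBR levels 15.82, 15.62, 15.70 and 15.68. At A_51_P168862 they ran from 14.75 to 15.05 in B6 and from 14.78 to 15.06 in BTBR. The strains overlapped at both probes. The differences were -0.025 (adjusted p = 0.90) and 0.011 (adjusted p = 0.97) in limma, and both intervals lay between 0.878-fold and 1.16-fold. The 2 probes share sequence and are not separate measurements of the gene.

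Ube3a encodes a ubiquitin ligase that neurons express mainly from the maternal copy, and its loss causes Angelman syndrome. At A_52_P120968 (chr7:66543835-66543894, plus strand) the B6 levels were 13.44, 13.41, 13.38 and 13.46 and the BTBR levels 13.44, 13.44, 13.42 and 13.51, so that all 8 mice lay within a narrow band. The difference there was 0.031 (SE 0.055, adjusted p = 0.83, limma). The other 2 probes gave differences of 0.042 for A_51_P268977 (chr7:66560207-66560266) and -0.0084 for A_52_P625244 (chr7:66561271-66561330). The spread was wider at A_51_P268977, where the 8 mice ran from 8.38 to 8.77. The intervals of the 3 probes lay between 0.887-fold and 1.20-fold.

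Other genes of this cluster were read from the list. Snurf, which shares its transcript with Snrpn and encodes a small protein upstream of it, had the brightest probe of the tested list genes there, with a difference of -0.027 (adjusted p = 0.90, limma). Ipw, a paternally expressed noncoding RNA between Snrpn and Ube3a, was called. At A_51_P411154 (chr7:66922859-66922918) the B6 levels were 8.30, 8.18, 8.33 and 8.36 and the BTBR levels 7.70, 7.81, 7.79 and 7.64. The signal was well above background in 4 of 4 B6 mice and in 0 of 4 BTBR mice, so BTBR has only a bound, the higher on each array of its own level and the lowest level well above background. Against that bound B6 was at least 1.43-fold higher, and the fit gave a measured difference of -0.56 (adjusted p = 0.00089, limma). The size of that difference depended on the processing, with -2.78 from the processed signal (adjusted p = 0.00014, limma) and -0.31 from the deposited matrix (adjusted p = 0.0035). The rank product did not call Ipw (pfp = 0.076).

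The remaining genes of the set regulate growth and lie in separate domains. Cdkn1c encodes p57, an inhibitor of cyclin-dependent kinases expressed from the maternal copy. Its single probe, A_51_P339540 (chr7:150644753-150644812, minus strand), gave B6 levels of 10.98, 11.53, 11.51 and 10.85. The BTBR levels were 12.43, 12.20, 11.50 and 11.05. BTBR replicates 1 and 2 stood above all B6 mice, and replicates 3 and 4 lay within the B6 range. The difference of 0.58 was the largest of the set, 1.49-fold with a 95% interval of 0.928 to 2.40-fold, and did not pass the test (adjusted p = 0.36, limma; exact two-sided permutation p = 0.17). It was 1.06 within slide 1 (adjusted p = 0.061) and 0.10 within slide 2 (adjusted p = 0.95). With both BTBR mice of slide 1 left out it was 0.061 (adjusted p = 0.94).

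Choroid plexus markers were highest in the same 2 mice as Cdkn1c. A list of choroid plexus genes, of which 7 of 8 were on the array (Ttr, Kl, Folr1, Clic6, Aqp1, Sostdc1 and Otx2), had mean log2 levels of 10.91, 11.68, 11.72 and 10.46 in B6 and 12.68, 12.59, 10.91 and 10.77 in BTBR. All 7 were well above background on at least 1 array, and 0 were called. BTBR replicates 1 and 2 were again the highest mice, and B6 replicate 4 was the lowest in both. The part of the choroid plexus in the Cdkn1c levels was not tested.

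**Figure D2:**
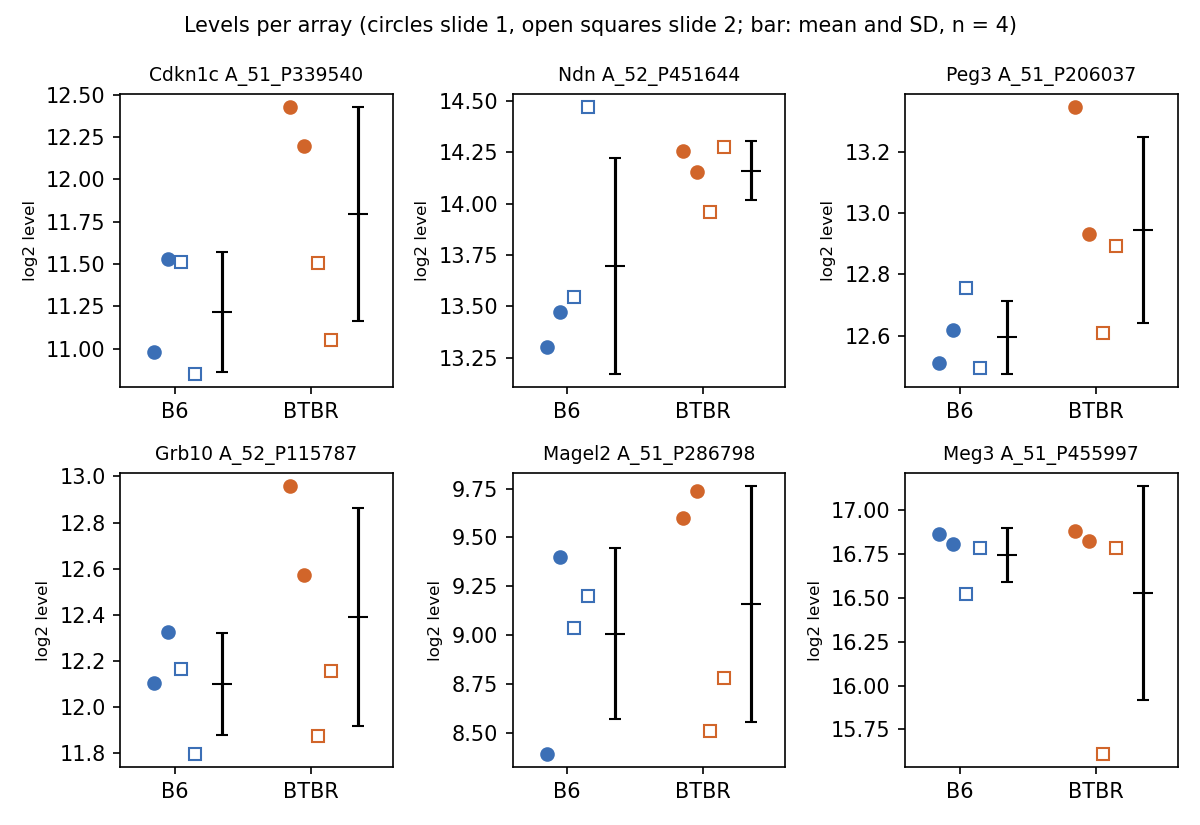
Log2 levels per array at 6 probes; filled circles are mice of slide 1 (replicates 1 and 2), open squares mice of slide 2 (replicates 3 and 4), and the bar gives the mean and SD (n = 4 per strain). The strains overlap in each panel: at Cdkn1c the BTBR mice of slide 1 lie at 12.43 and 12.20 and those of slide 2 at 11.50 and 11.05, B6 replicate 4 is the highest mouse at Ndn (14.47), and BTBR replicate 3 is the lowest at Meg3 (15.61).

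Peg3 encodes a zinc finger protein expressed from the paternal copy, which takes part in growth and maternal behavior. Its probe A_51_P206037 (chr7:6660440-6660499, minus strand) had the smallest p of the 23. The B6 levels were 12.51, 12.62, 12.75 and 12.49 and the BTBR levels 13.35, 12.93, 12.61 and 12.89. The BTBR mice stood above all B6 mice except replicate 3, which lay below B6 replicates 2 and 3. The difference of 0.35 (1.27-fold, 95% interval 1.02 to 1.6-fold) had an unadjusted p of 0.038 and an adjusted p of 0.23 in limma, and an exact two-sided permutation p of 0.086. It was 0.57 within slide 1 (adjusted p = 0.086, limma), 0.13 within slide 2 (adjusted p = 0.88) and 0.22 without BTBR replicate 1 (adjusted p = 0.38). A probe nearer the 3′ end of the transcript, A_52_P235861 (chr7:6658774-6658833), gave 11.99, 12.04, 12.44 and 12.37 in B6 and 12.94, 12.83, 11.77 and 12.55 in BTBR. There the BTBR mice held both the highest and the lowest level, and the difference was 0.31 (adjusted p = 0.58), with 0.86 within slide 1 (adjusted p = 0.059) and -0.25 within slide 2 (adjusted p = 0.78). The third probe, A_52_P1131620 (chr7:6674944-6675002), which the files assign to another transcript, gave a difference of 0.073 (adjusted p = 0.67). Usp29, the neighbor of Peg3 on the list, had a difference of 0.13 (adjusted p = 0.78).

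Grb10 encodes an adaptor that binds the insulin receptor and restrains growth. It is expressed from the maternal copy in most tissues and from the paternal copy in neurons. At A_52_P115787 (chr11:11830965-11831024, minus strand) the B6 levels were 12.11, 12.32, 12.17 and 11.80 and the BTBR levels 12.96, 12.57, 11.88 and 12.16. BTBR replicates 1 and 2 were the highest mice and the others overlapped, with a difference of 0.29 (SE 0.22, adjusted p = 0.56, limma). It was 0.55 within slide 1 (adjusted p = 0.12) and 0.035 within slide 2 (adjusted p = 0.98). The other 2 probes, A_51_P187151 (chr11:11833580-11834228) and A_52_P40363 (chr11:11870574-11870633), gave differences of 0.086 (adjusted p = 0.69) and 0.21 (adjusted p = 0.48). BTBR replicate 1 was the highest and B6 replicate 4 the lowest of the 8 mice at all 3 Grb10 probes. With both BTBR mice of slide 1 left out the 3 differences were -0.081, -0.021 and 0.15.

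Plagl1, also known as Zac1, encodes a zinc finger transcription factor that restrains cell division and is expressed from the paternal copy. It was the gene of the set with a lower mean in BTBR at every probe, and neither probe passed the test. At A_52_P532456 (chr10:12851280-12851339, plus strand) the B6 levels were 12.61, 13.46, 13.49 and 13.24 and the BTBR levels 13.64, 13.51, 12.43 and 12.71. The highest and the lowest mouse were both BTBR. The difference was -0.13 (SE 0.30, adjusted p = 0.88, limma), and it was 0.55 within slide 1 and -0.80 within slide 2. At A_51_P432034 (chr10:12849470-12849529) it was -0.15 over all mice (adjusted p = 0.68), 0.18 within slide 1 and -0.48 within slide 2.

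**Figure D3:**
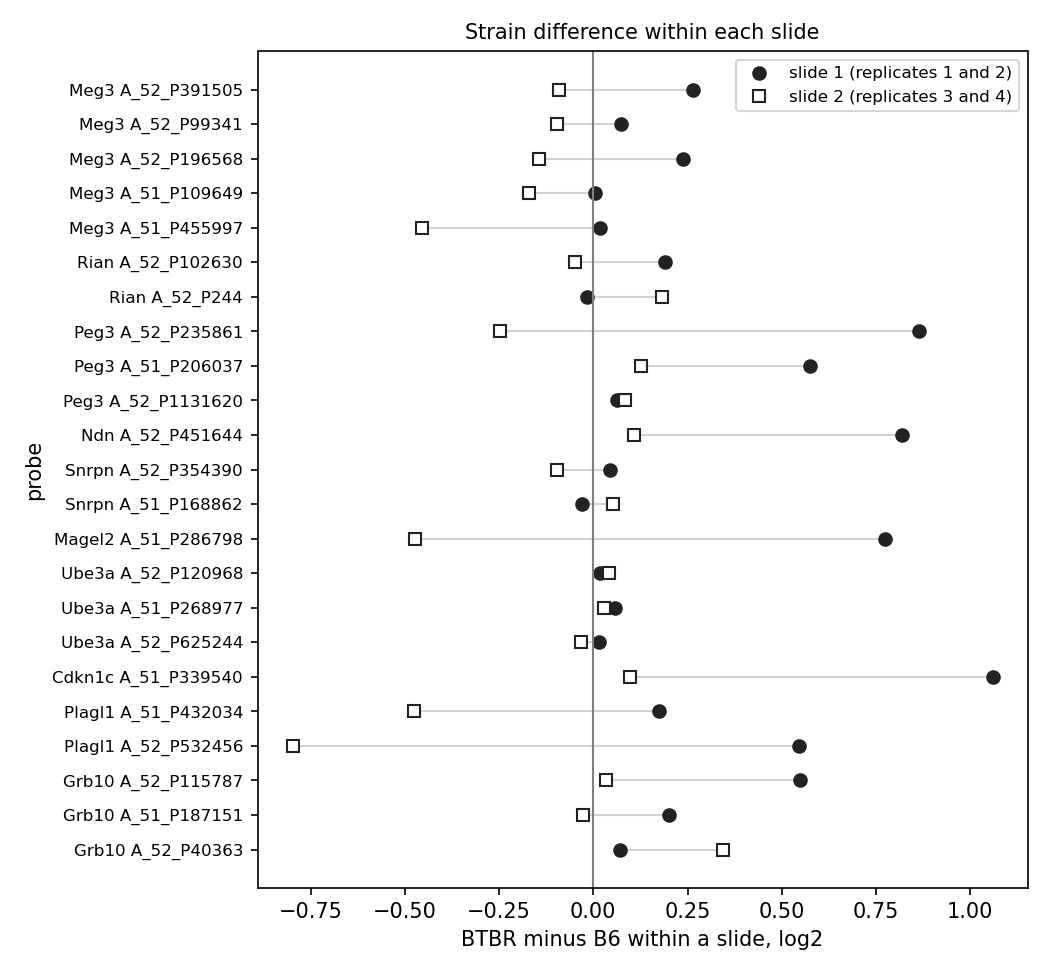
Strain difference (BTBR minus B6, log2) of each probe within slide 1 (filled circles, replicates 1 and 2) and within slide 2 (open squares, replicates 3 and 4), 2 mice per strain and slide. Within slide 1 the differences run from -0.030 to 1.06 and within slide 2 from -0.80 to 0.34.

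Differences of the set were mostly positive within one slide and mixed within the other. Within slide 1, 21 of the 23 differences were positive with a median of 0.18. Within slide 2, 10 were positive with a median of -0.031. Over all tested probes the median was 0.019 within slide 1 and 0.0028 within slide 2. The sign differed between the slides at 15 of the 23 probes, and slide 1 gave the higher difference at 18. No member probe was called within either slide, where 8.65% and 3.70% of all probes were called. The interaction of strain and slide passed an unadjusted threshold of 0.05 at 5 member probes, namely Peg3 A_52_P235861, the probes of Magel2 and Cdkn1c and both of Plagl1, and at 9.94% of all probes. After adjustment over all probes, 0 member probes and 0 of all probes passed in limma.

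**Figure D4:**
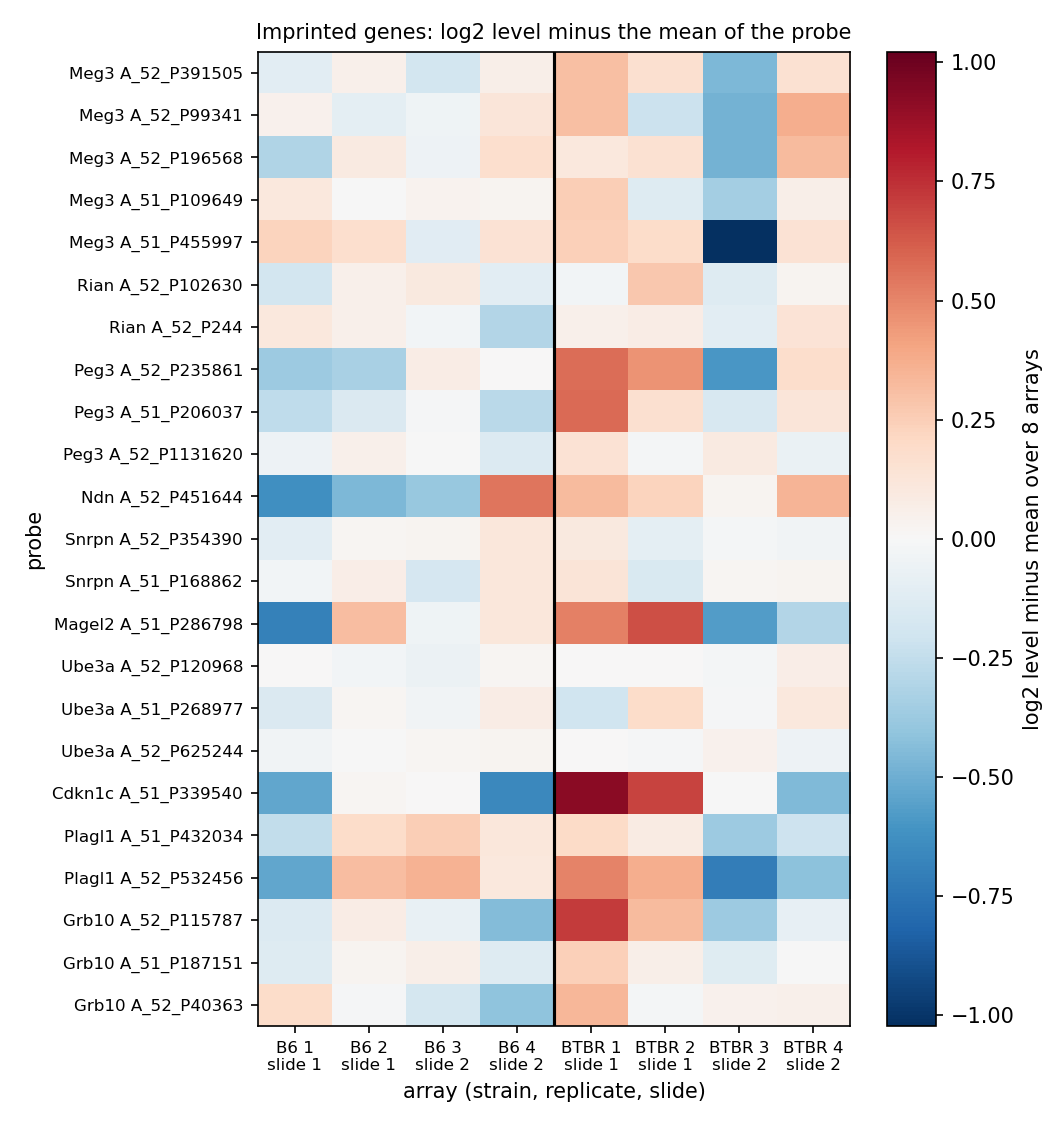
Log2 level of each of the 23 probes (rows) on each array (columns, with strain, replicate and slide) minus the mean of the probe over the 8 arrays; red is above and blue below that mean. BTBR replicate 1 is above the mean at 21 probes and BTBR replicate 3 at 5.

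The extremes of the 23 probes fell unevenly over the mice. BTBR replicate 1 had the highest level of the 8 mice at 12 of the 23 probes (52.2%), against 16.2% of all tested probes, and its median deviation from the mean of the probes was 0.24. The 12 were 3 probes of Meg3, 3 of Peg3, 3 of Grb10 and 1 each of Snrpn, Cdkn1c and Plagl1. Probes of the same gene are not separate observations. BTBR replicate 3 had the lowest level at 8 of the 23 (34.8%, against 16.4% of all), namely the 5 Meg3 probes, 1 of Peg3 and both of Plagl1. The array of that mouse had 61.8% of probes well above background, against 68.4% to 71.5% on the other BTBR arrays, and B6 replicate 1 had the lowest share of the 8, 56.9%. The part of these shares in the levels was not tested. B6 replicate 4 was lowest at 7 (30.4%, against 11.8% of all). The SD between BTBR mice exceeded that between B6 mice at 18 of the 23 probes (78.3%), against 66.6% of all probes, with a median SD of 0.26 in BTBR and 0.13 in B6 over the member probes. The median SDs over all tested probes were 0.14 and 0.11. For other imprinted genes the BTBR SD was larger at 70.9% of 79 probes, with medians of 0.20 and 0.12. At the brightest probes of these genes it was larger at 79.5%, with medians of 0.26 and 0.13, so the wider spread was not particular to the 10 genes. Without BTBR replicate 3, 20 of the 23 differences were positive, 4 had an unadjusted p under 0.05, against 21.6% of all probes, and 0 were called in limma, against 7.80% of all probes. With both BTBR mice of slide 1 left out, 9 were positive and 0 were called, against 5.54% of all probes. The median difference of the members was 0.13 in the former fit and -0.021 in the latter. Over all tested probes it was 0.017 and 0.010.

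Regional markers differed between the same mice. The hippocampal list (Prox1, C1ql2, Wfs1, Fibcd1, Bok, Neurod6, Zbtb20, Nrgn and Camk2a) was detected in full, 9 of 9, with mean log2 levels of 13.58 to 14.17 in B6, and of 12.98, 12.71, 14.02 and 13.85 in BTBR replicates 1 to 4. The thalamic list of 7 genes had levels of 10.26 to 10.70 in B6 and of 13.40, 11.02, 10.31 and 10.44 in BTBR. The striatal list of 6 genes lay between 10.54 and 12.71 in B6, and at 12.11, 14.15, 10.76 and 10.37 in BTBR. BTBR replicates 1 and 2 were thus lowest for hippocampal genes and highest for thalamic genes, and 0 genes of these 3 lists were called. Neuronal genes lay between 15.17 and 15.32 in all 8 mice. The part of these regions in the levels of the imprinted genes was not tested.

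**Figure D5:**
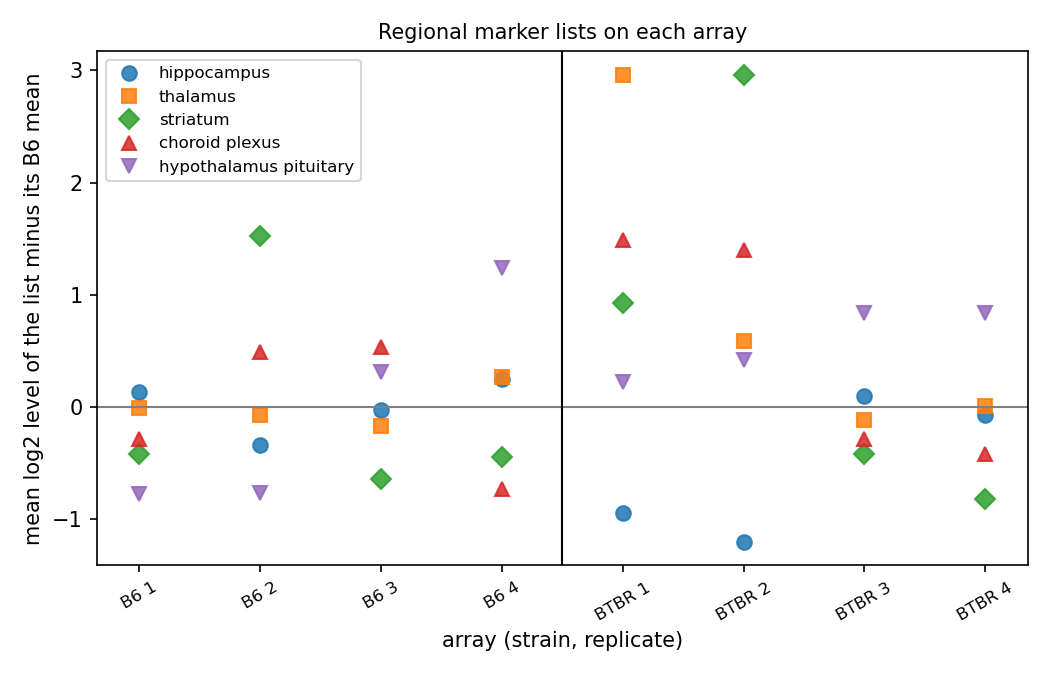
Mean log2 level of 5 lists of regional marker genes on each array, minus the mean of the 4 B6 arrays; each symbol is a list. BTBR replicate 1 stands highest for thalamic genes and BTBR replicate 2 for striatal genes, both lie highest for choroid plexus genes and lowest for hippocampal genes, and B6 replicate 4 stands highest for hypothalamic and pituitary genes.

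Beyond the 10 genes, a list of 63 other imprinted genes was read, of which 55 were on the array and 44 passed the filter. Each was counted once, at its brightest probe. Of the 44, 3 were called, 1 higher and 2 lower in BTBR, against 7.82% of all genes counted in the same way. The median difference was 0.018 over the 44 genes and 0.011 over all genes.

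Besides Ipw, the called genes were Gatm and Asb4. Gatm, which encodes the enzyme of the first step of creatine synthesis, gave 12.91, 12.64, 12.86 and 12.70 in B6 and 12.15, 12.37, 11.84 and 11.50 in BTBR at A_51_P461319 (chr2:122420814-122420873). All BTBR mice were below all B6 mice, with a difference of -0.81 (SE 0.17, adjusted p = 0.021, limma). Asb4, a maternally expressed gene on chromosome 6 that encodes a substrate receptor of ubiquitin ligases, gave 7.97, 8.21, 8.32 and 8.43 in B6 and 9.22, 9.03, 8.56 and 8.69 in BTBR at A_52_P594756 (chr6:5382886-5382945). It was well above background in 3 of 4 B6 and in 4 of 4 BTBR mice, and its difference was 0.65 (adjusted p = 0.042). Leaving out any 1 of 4 B6 mice or BTBR replicate 1 or 2 ended the Asb4 call, as did the processed signal (1.46, adjusted p = 0.092), the deposited matrix (0.44, adjusted p = 0.056), no filter (0.055), the replicate block (0.13) and the fit with both BTBR mice of slide 1 left out (0.18), and leaving out B6 replicate 1, 3 or 4 ended that of Gatm. Asb4 was called within slide 1, with 1.04 (adjusted p = 0.0035, limma), and not within slide 2, with 0.25 (adjusted p = 0.49). Gatm was called within slide 2, with -1.10 (adjusted p = 0.010), and not within slide 1, with -0.52 (adjusted p = 0.089).

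The brightest list genes of the domains of Cdkn1c and of chromosome 11 did not pass the test. Cd81, near Cdkn1c, had a difference of -0.070 (adjusted p = 0.75, limma). Zrsr1, a splicing factor gene farther along chromosome 11 from Grb10, had levels of 13.98, 13.96, 13.98 and 13.94 in B6 and 14.24, 14.25, 14.06 and 14.17 in BTBR, where all BTBR mice stood above all B6 mice, with a difference of 0.21 (adjusted p = 0.087).

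Further genes of the list were picked after their values were seen. Igf2, a paternally expressed growth factor in the neighborhood of Cdkn1c, gave 11.06 to 12.51 in B6 and 12.41 to 13.53 in BTBR at its brightest probe, A_51_P516826. That difference of 1.30 did not pass (adjusted p = 0.060), while the other Igf2 probe, A_51_P516833, passed with 1.24 (adjusted p = 0.033, limma). The rank product called both Igf2 probes (pfp of 0.00063 and 0.00088). A list of 8 meningeal genes had mean log2 levels of 10.89, 11.27, 11.86 and 10.62 in B6 replicates 1 to 4. In BTBR they were 11.79, 11.01, 11.43 and 12.07. The part of the meninges and the choroid plexus in the Igf2 levels was not tested. For H13, a signal peptide peptidase gene, A_52_P341161 was lower in BTBR with a difference of -0.87 (adjusted p = 9.9e-05), and the brightest probe, A_52_P655663, had a difference of -0.027. At probes other than their brightest, Inpp5f passed with 0.46 (adjusted p = 0.013) and Blcap with -0.47 (adjusted p = 0.034). That Blcap probe, A_52_P386754, was well above background in 3 of 4 B6 and in 1 of 4 BTBR mice. Probes of 1 gene thus gave different calls in limma for these 4 genes. Over all 79 tested probes of the list, 3 were called higher and 4 lower in BTBR, against 3.31% and 4.3% of all probes. The probes of the 10 members gave 0 calls. Of these, Ndn, Magel2 and Cdkn1c had 1 probe each, so that no difference in call between probes was possible.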

How the data were processed

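Levels were read in hippocampal RNA of 4 BTBR and 4 B6 mice, grouped by the labels. The authors deposited the spot intensity of each Cy3 array, read with Feature Extraction 10.7.3.1 according to the headers and 9.1 in the submitters' processing notes. The deposited log2 matrix was made by the authors with Agi4x44PreProcess and quantile normalization and served as an alternative. Mean intensity minus local background (minimum 0.5), plus an offset of 50, was log2 transformed and normalized by quantiles across the arrays. Control probes and 154 probes with outlier flags were left out, replicate spots were summarized by their median, and probes well above background on 75% or more of the arrays of a strain were kept; 0 spots were saturated. Between 56.9% and 71.9% of probes were well above background per array, and precision is limited by the number of arrays. The test was limma 3.58.1 in R 4.3.3, strain as the only term, checked on simulated data; single probes had exact permutation tests, and the rank product used 100 permutations. It permutes probes within arrays. On the simulated data both tests made more false calls than the threshold allows. The excess was larger for the rank product, which was run there with fewer permutations. Sequences and figures used Python 3.11.15, NumPy 2.4.6, pandas 2.3.3 and Matplotlib 3.10.9. Alternatives were other signals and scalings, filters, blocks, left-out arrays and thresholds. All 10 genes were described with every probe; other imprinted genes were named when called at their brightest probe or brightest in a domain beside a member. The members and lists were chosen with earlier results of these data known. 11 marker lists were written from general knowledge: those for meninges, astrocytes, oligodendrocytes, microglia and endothelium had 0, 1, 0, 1 and 1 called genes. The En2 mice and qRT-PCR were not analysed here.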

Additional observations from a re-analysis of the deposited data

Results flagged for a closer look

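The level of Meg3 at A_51_P455997 in BTBR replicate 3, 15.61, lay far from those of the other 3 BTBR mice, which were 16.79 to 16.88, a gap large for the range of 4 samples (Dixon's test at 95%). It was the single such level among 46 groups of 4 mice. Over all tested probes the same criterion was met by 5.11% of BTBR groups and 5.60% of B6 groups, near the 1 in 20 that chance gives.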

How the results depend on the processing

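Of 514 values of member probes under the alternatives, 463 kept their direction and their side of the threshold, 50 changed sign, with none called, and 1 passed the threshold. Leaving out each array in turn gave 0 to 1 called member probes (Ndn without B6 replicate 4), 1 to 5 other imprinted genes and 1533 to 2182 of all probes. No member probe was called under the other alternatives, and with an unadjusted p under 0.05 there was 1 member probe, 9 other imprinted genes and 5183 of all probes. At an adjusted p under 0.01 the latter counts were 1 and 1196, and by rank product 5 (Dio3, Igf2, Gatm, Nnat and Asb4) and 1102. With probes well above background on all arrays, 1 other imprinted gene was called. Within slide 2, 1036 of all probes were called. With median centring the median difference over all probes was -0.011, and 37.0% of the calls were higher in BTBR against 43.4% with quantile normalization of the same arrays and probes. The replicate numbers did not pair the mice: the correlations of same-numbered mice were -0.14, 0.51, -0.10 and 0.39, and 4 of 8 mice correlated best with their own number. With the replicate block 0 member probes, 2 other imprinted genes and 1650 of all probes were called, and the adjusted p of Asb4 was 0.13.

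Sign changes of uncalled member differences were as follows, and their cause was not tested. Within slide 1, Meg3 was 0.074 (A_52_P99341), 0.0053 (A_51_P109649) and 0.018 (A_51_P455997), Rian A_52_P244 was -0.017, Snrpn was 0.045 (A_52_P354390) and -0.030 (A_51_P168862), Ube3a A_52_P625244 was 0.015, and Plagl1 was 0.18 (A_51_P432034) and 0.55 (A_52_P532456). Within slide 2, Meg3 was -0.090 (A_52_P391505) and -0.14 (A_52_P196568), Rian A_52_P102630 was -0.049, Peg3 A_52_P235861 was -0.25, Magel2 A_51_P286798 was -0.47 and Grb10 A_51_P187151 was -0.028. With the processed signal, Meg3 A_52_P196568 was -0.019, Snrpn A_51_P168862 was -0.0038 and Ube3a A_52_P625244 was 0.0070. With median centring, Meg3 A_52_P196568 was -0.020, Snrpn A_51_P168862 was -0.054 and Ube3a A_52_P120968 was -0.028. The median over probes of a gene gave 0.087 for Meg3 and -0.0084 for Ube3a. With both BTBR arrays of slide 1 left out, an alternative chosen after seeing the data, Meg3 was -0.11 (A_52_P391505) and -0.059 (A_52_P196568), Rian A_52_P102630 was -0.016, Peg3 A_52_P235861 was -0.052, Magel2 A_51_P286798 was -0.36, and Grb10 was -0.081 (A_52_P115787) and -0.021 (A_51_P187151).

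Leaving out each array gave ranges of -0.0027 to 0.25 (Meg3 A_52_P391505), -0.14 to 0.15 (A_52_P99341), -0.051 to 0.22 (A_52_P196568), -0.18 to 0.019 (A_51_P109649) and -0.34 to 0.086 (A_51_P455997). For Rian they were -0.0092 to 0.13 (A_52_P102630) and -0.0028 to 0.13 (A_52_P244), for Snrpn -0.065 to 0.0083 (A_52_P354390) and -0.046 to 0.063 (A_51_P168862), for Magel2 -0.055 to 0.37, for Ube3a -0.013 to 0.12 (A_51_P268977) and -0.024 to 0.0083 (A_52_P625244), and for Plagl1 -0.32 to 0.089 (A_52_P532456) and -0.26 to -0.052 (A_51_P432034). They were 0.33 to 0.72 for Ndn, 0.37 to 0.83 for Cdkn1c, 0.22 to 0.46 (A_51_P206037), 0.17 to 0.56 (A_52_P235861) and 0.037 to 0.11 (A_52_P1131620) for Peg3, and 0.10 to 0.46 (A_52_P115787), 0.019 to 0.14 (A_51_P187151) and 0.11 to 0.31 (A_52_P40363) for Grb10. Signal over background limits Ipw, Asb4, the dim probes of Blcap and the member probes Peg3 A_52_P1131620 and Grb10 A_51_P187151. That Peg3 probe was well above background in 3 of 4 B6 and 3 of 4 BTBR mice. The Grb10 probe was so in 3 of 4 B6 and 4 of 4 BTBR mice.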
